A study of Mus musculus with 16 samples.

Results

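U1-length small nuclear RNA (snRNA) intervals are the counted intervals whose coordinates match a GENCODE M21 gene of type snRNA with a length in the 16-base window that ends at 170 bases, around that of U1, with Rnu11 and Rnu12 left out. The annotation holds 144 such genes, and 42 of them were among the 1885 intervals of the deposited tables. Wild-type mouse bone marrow was sorted by flow cytometry and its small RNA sequenced, to examine snoRNA profiles of progenitor and mature blood cells. The progenitors were the common lymphoid (CLP), common myeloid (CMP), granulocyte-monocyte (GMP) and megakaryocyte-erythroid (MEP) progenitors, and the mature cells were B, T, Myeloid (spelled "Myloid" in the labels) and Erythroid cells. Each of the 8 populations had 2 libraries, 16 in all. The labels give no age, strain, treatment or source animal, so p-values speak only to the spread between these libraries, which may be technical.

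U1 is the RNA of the spliceosomal particle that recognises the 5′ splice site of a pre-mRNA. Its 5′ end pairs with the splice site, its stem-loops bind the proteins U1-70K and U1A, and a single-stranded Sm site holds the ring of Sm proteins. Mouse carries many near-identical U1 genes of an a and a b type, and the b type is best known from embryonic and developing tissue, while the genome also holds many U1-like pseudogenes.

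By sequence, 25 of the 42 members were canonical, meaning at least 95% identical to Rnu1a1, Rnu1b1 or Rnu1b2. Another 16 were variants with at least 70% identity, and 1, Gm25052, was 46.4% identical to Rnu1a1 and was not U1-like, so the length label did not hold for it. The canonical intervals held 213556 of the 213974 member counts, and the other 17 together held 418. Canonical U1 made up 99.7% to 99.9% of the member counts in each library. The members had 32 distinct sequences, and identical copies cannot be told apart by the sequence of a read that lies within them.

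The sequences below are shown because they define the a and b types and the single-base differences between the measured copies. They are read 5′ to 3′ on the annotated strand from the GENCODE M21 transcripts (GRCm38). Rnu1a1 (ENSMUSG00000095969.1) lies at chr11:87422867-87423030 on the plus strand in an intron of Tex14, and its sequence is shared by 7 members. Rnu1b1 (ENSMUSG00000095580.1) lies at chr3:96359953-96360117 on the minus strand, and Rnu1b2 (ENSMUSG00000093834.1), with the same sequence, at chr3:96374021-96374185 on the plus strand. Gm22614 lies at chr3:96488729-96488893 (plus), Gm22042 at chr4:51812483-51812647 (minus), Gm24830 at chr3:96328425-96328590 (plus), Gm23238 at chr19:18732741-18732904 (plus) and the variant Gm22155 at chr6:6924118-6924279 (minus). Capitals mark 3 elements where present: the first 11 bases, which pair with the splice site, the U1A loop word ATTGCAC and the Sm site word ATTTGTG.
Rnu1a1: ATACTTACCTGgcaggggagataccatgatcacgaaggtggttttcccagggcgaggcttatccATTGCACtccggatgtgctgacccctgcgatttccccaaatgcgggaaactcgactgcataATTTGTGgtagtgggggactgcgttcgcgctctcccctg
Rnu1b1: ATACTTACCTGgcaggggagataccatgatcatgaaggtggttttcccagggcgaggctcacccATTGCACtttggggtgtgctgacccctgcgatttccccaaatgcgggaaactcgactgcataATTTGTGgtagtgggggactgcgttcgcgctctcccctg
Gm22614: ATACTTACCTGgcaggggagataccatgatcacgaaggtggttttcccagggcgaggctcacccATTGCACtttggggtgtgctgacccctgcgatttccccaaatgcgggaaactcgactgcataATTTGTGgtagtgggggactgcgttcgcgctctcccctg
Gm22042: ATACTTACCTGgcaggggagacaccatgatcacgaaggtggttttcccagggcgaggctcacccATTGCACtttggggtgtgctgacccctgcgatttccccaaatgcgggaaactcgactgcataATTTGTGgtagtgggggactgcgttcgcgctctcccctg
Gm24830: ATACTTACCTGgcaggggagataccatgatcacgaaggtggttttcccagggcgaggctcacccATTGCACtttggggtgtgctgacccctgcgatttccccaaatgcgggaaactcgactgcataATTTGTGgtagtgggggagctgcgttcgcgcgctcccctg
Gm23238: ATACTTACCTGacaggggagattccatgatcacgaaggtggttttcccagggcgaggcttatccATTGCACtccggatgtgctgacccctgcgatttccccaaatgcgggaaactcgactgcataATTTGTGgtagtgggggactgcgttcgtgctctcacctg
Gm22155: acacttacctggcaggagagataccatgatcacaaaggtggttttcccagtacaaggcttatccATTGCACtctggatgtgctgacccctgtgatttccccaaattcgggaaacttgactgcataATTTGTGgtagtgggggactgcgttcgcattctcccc

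Positions are counted from 1 at the 5′ end. Gm22614 differed from Rnu1b1 by 1 substitution, T33C, which lies in the U1-70K loop. Rnu1b1 and Rnu1b2 therefore lacked the searched U1-70K loop word ATCACGA, which Gm22614 and Rnu1a1 carry from position 29. Gm22042 differed from Gm22614 by T22C alone. Among a-type members, Gm22513 differed from Rnu1a1 by T60C, Gm24305 by A26G, and Gm23238 by G12A, A23T, C153T and C160A.

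The first 11 bases were intact in 25 of 25 canonical and 7 of 16 variant members. The U1A word was present in 25 canonical and 14 variant members, the U1-70K word in 22 and 7, and the Sm word in 24 and 9. These words were searched on the annotated strand only and do not overlap each other. All 4 elements were found together in 21 canonical members and in 1 of the other 17. Absence of a word says only that those letters are not in the interval.

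Total counts per library ran from 8197458 to 41799906 over all intervals. Per the labels, libraries were cut from a gel at 170 to 370 bp including adaptors, a window the labels describe as that of snoRNAs with adaptors. Its effect on the recovery of U1 was not tested. Marker miRNAs were measured as a check of the labels. The T cell and B cell marker Mir150 was highest in T (272 CPM, mean of 2 libraries) and next in B (81.8 CPM). The myeloid Mir223 was highest in Myeloid (921 CPM), and next in Erythroid (443 CPM), above GMP (346 CPM). The lymphoid Mir342 was highest in T (63.7 CPM), but B (16.2 CPM) lay below Myeloid (18.2 CPM). The progenitor markers Mir99a, Mir125b-1 and Mir126a were highest in CMP, and Mir125a in T (1.42 CPM). Mir126a was also higher in T (12.5 CPM) than in CLP (7.04), GMP (8.70) and MEP (9.36), so these did not single out progenitors. The erythroid Mir451a was highest in MEP (152 CPM) and Erythroid (147 CPM), but at 127 CPM in CLP it did not single out the erythroid branch. Mir144 (4.59 CPM) and Mir486 (6.70 CPM) were highest in MEP. In Erythroid, Mir144 stood at 2.6 CPM, beside 2.5 CPM in CLP. Mir486 was at 2.87 CPM in Erythroid, below CMP (3.79 CPM) and CLP (3.39 CPM). These markers thus did not set the Erythroid libraries apart. Here and below, CPM means a count per 1e6 counts of the library, with library sizes scaled by the trimmed mean of M values (TMM). The share of miRNA in the library counts ran from 1.23% to 3.94%, was highest in both Myeloid libraries, and differed within GMP (1.40% and 2.33%), MEP (2.17% and 1.33%) and Erythroid (1.41% and 2.62%).

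A filter on low counts left 23 members for testing, 22 canonical and the variant Gm22155. Of these, 18 had at least 10 counts in every library. The other 19 members had 1 to 50 counts over all libraries and at most 14 counts in any 1, so nothing can be said of their differences at this depth. They included 3 canonical members, Gm23686, Gm25818 and Gm24136. Gm22155 had 112 counts in all and stood at or below 0.888 CPM in every library.

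Most of the U1 counts in these libraries were assigned to 8 plus-strand intervals. They were Gm23804, Gm22513, Gm22068, Rnu1a1, Gm22634, Rnu1b2, Gm22614 and Gm26444, and held 183963 counts, 86.0% of all member counts. All but Gm22513 share their sequence with a minus-strand member, so the locus of origin of these reads is not known. Their means over the libraries were 53.8 to 90.8 CPM, while the next, Rnu1b1, had 16.02 CPM. These 8 form a group only by their level and strand, a split made after the values were seen. Gm23804, Gm22513, Gm22634 and Gm26444 lie in a cluster at chr12:54696782-54738622, and Rnu1b2 and Gm22614 in a cluster at chr3:96328425-96488893. Each cluster held 7 tested canonical members, 4 on the plus and 3 on the minus strand. Gm22068, like Rnu1a1, lies in a Tex14 intron.

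Rnu1a1 stood at 87.8 and 96.3 CPM in the Myeloid libraries, and no library of another population exceeded 77.9 CPM. It was 62.6 and 70.9 CPM in CLP, 70.6 and 77.9 in CMP, 71.8 and 62.5 in GMP, and 44.6 and 49.8 in MEP. It was 69.5 and 74.8 CPM in B, 42.4 and 43.8 in T, and 60.0 and 52.3 in Erythroid. Rnu1a1 was thus highest in Myeloid and lowest in T, without overlap between these and the other libraries. The most abundant copy, Gm23804, showed 142 and 174 CPM in Myeloid against 59.7 and 70.5 in T. Its other libraries lay at 75.9 and 89.2 CPM in CLP, 103 and 110 in CMP, 78.4 and 67.7 in GMP, 54.4 and 59.9 in MEP, 97.7 and 130 in B, and 74.2 and 67.2 in Erythroid. For Gm23804 the MEP libraries overlapped those of T at the low end, and the Myeloid libraries again stood above all others.

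The b-type member Rnu1b2 had the same order at its ends. It was 93.1 and 101 CPM in Myeloid, 38.5 and 40.2 in T and 41.8 and 42.4 in MEP. CLP gave 51.3 and 59.3 CPM, CMP 63.5 and 68.2, GMP 62.6 and 53.0, B 64.0 and 66.0, and Erythroid 52.3 and 52.5. Gm22614 ranged over the libraries from 36.9 CPM in T to 91.0 CPM in Myeloid. The a and b types among the abundant intervals were therefore not separated by their highest or lowest population.

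Differences were tested with edgeR's quasi-likelihood test and Benjamini-Hochberg adjustment over all 749 tested features. Among the 23 tested members, 21 varied among the 8 populations, where 61.1% of all tested features did. Against the mean of the other 7 populations, all 8 abundant plus-strand intervals were higher in Myeloid (18.8% of all features were called higher there). The log2 differences ran from 0.55 to 1.00, with Rnu1a1 at 0.62 (SE 0.09, adjusted p = 0.000401), Rnu1b2 at 0.87 (SE 0.08, adjusted p = 4.55e-05) and Gm23804 at 1.00 (SE 0.11, adjusted p = 0.000131). In all 8 the Myeloid libraries stood above the 14 others, and the share of all features that did so was not counted. Of these 8 intervals, 5 have the Rnu1a1 sequence, so they are not separate observations. All 8 were lower in T, with a median of -0.63 (29.5% of all features were lower there), and in MEP, with a median of -0.51 (8.41%). With DESeq2-style size factors (RLE) in the same edgeR fit, 8 were still higher in Myeloid, 7 lower in T and 7 lower in MEP, and with unscaled library totals all 8 were in each case. For single populations, the shares of all features under these other scalings were not counted. In CMP, 5 of the 8 were higher (17.5% of all features were), but only 1 with the RLE factors. Myeloid was also the population of highest miRNA share, and the part of that in these differences was not tested. In sorted cells in bulk, less RNA per cell and fewer cells of a type cannot be told apart.

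The 10 tested minus-strand members had another pattern. Rnu1b1, identical in sequence to Rnu1b2, was 24.5 and 24.9 CPM in CLP, 22.4 and 21.1 in MEP, 19.3 and 21.2 in GMP and 12.5 and 14.5 in CMP. In mature cells it was 8.18 and 10.5 CPM in B, 8.72 and 7.90 in T, 10.9 and 13.3 in Myeloid and 17.9 and 18.4 in Erythroid. Rnu1b1 was highest in CLP and, unlike its identical copy on the plus strand, did not stand out in Myeloid. Gm22042, the b-type copy with T22C, was 16.7 and 19.0 CPM in the CLP libraries and 4.45 and 6.61 in T, with GMP at 16.3 and 19.4. Gm22317, which has the Rnu1a1 sequence, was 12.1 and 13.8 CPM in CLP, 4.62 and 4.69 in B and 3.68 and 5.17 in T.

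Against the other 7 populations, 8 of the 10 minus-strand members were higher in CLP (12.8% of all features), 8 in GMP (19.1%) and 5 in MEP (20% of all features). In the mature lymphoid cells, 8 were lower in B (16%) and 8 lower in T. Each population also enters the mean against which the others are set, so these comparisons share libraries. None of the 10 passed in Myeloid in edgeR (2 had an unadjusted p below 0.05), where their median difference was 0.04, although 3 were higher with unscaled totals. With the RLE factors and with the replicate block 1 was lower there. With RLE factors the counts were 8 in CLP, 6 in GMP and 2 in MEP, and 8 and 7 in B and T. For single populations, the shares of all features under these other scalings and the block were not counted. The remaining 2 members, Rnu1b6 and Gm22155, have too few counts, 268 and 112, for a statement.

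**Figure D1:**
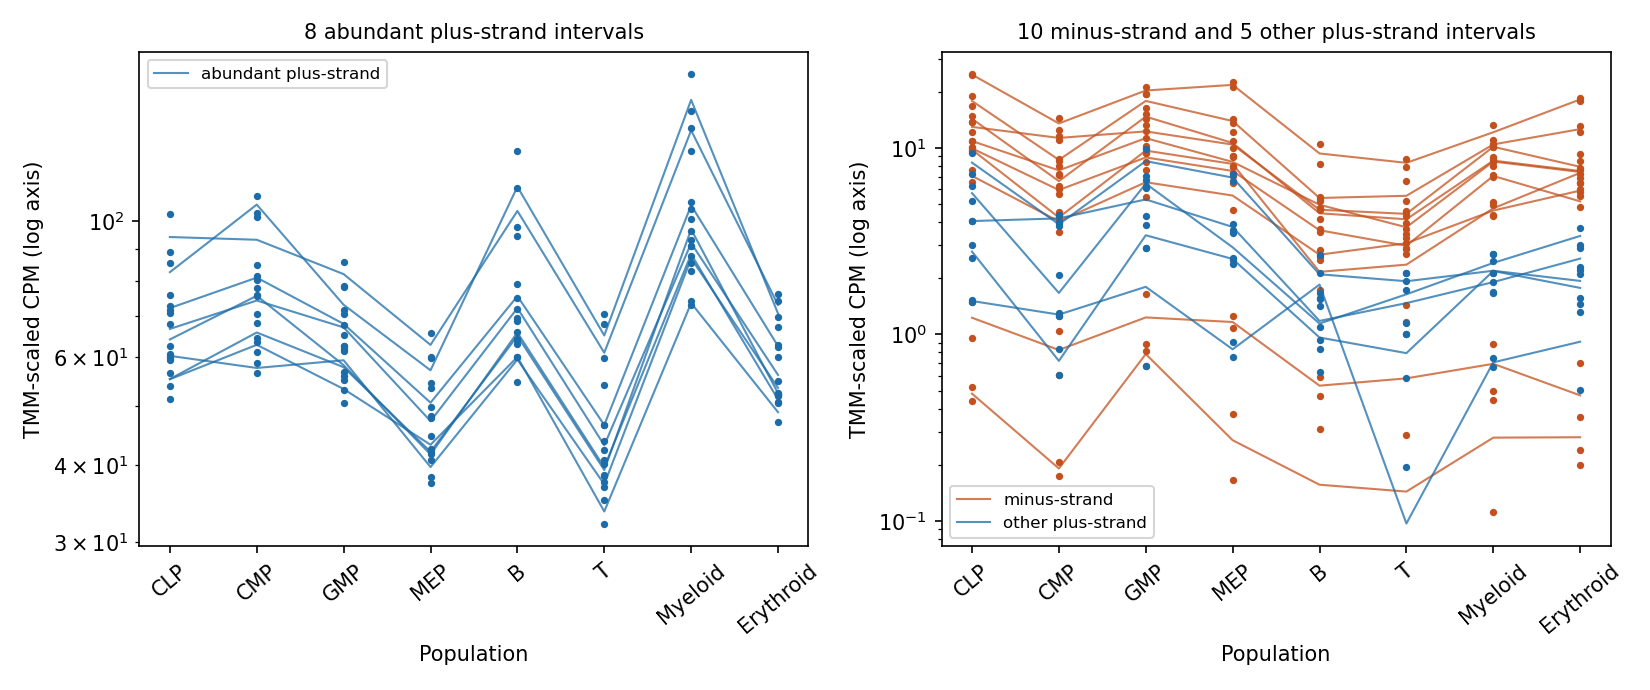
Levels of the 23 tested U1-length intervals in 8 populations, as TMM-scaled CPM on a log axis, with a point for each library and a line through the population means. The 8 abundant plus-strand intervals (left) peak in Myeloid and are lowest in T or MEP, while the 10 minus-strand intervals (right, orange) and 4 of the 5 other plus-strand intervals (right, blue) are highest in CLP or GMP. The exception, Gm26232, is highest in B.

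Correlations of log2 levels over the 8 population means are given as a description. The groups were split after these values were seen, so the correlations are no separate evidence for the split. Within the abundant plus-strand intervals Pearson's r was 0.86 to 0.99 over 28 pairs, and within the minus-strand intervals with a mean of at least 3 CPM it was 0.82 to 0.99 over 28 pairs. Between the groups it was -0.40 to 0.46 over 64 pairs. The plus-strand members Gm24830, Gm25189 and Gm23238, all of low level, correlated with the minus-strand intervals at 0.70 to 0.94. Gm26110 (mean 1.89 CPM) and Gm26232 (mean 1.12 CPM) were left out of these correlations for their lower level. All points share the libraries and their scaling, and members with the same sequence share reads that cannot be assigned.

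The contrast within identical sequences was measured directly. There were 4 U1 sequences with copies on both strands, 14 members in all. For the 7-copy U1a sequence the 5 plus-strand copies had on average 7.77 times the count of the 2 minus-strand copies. The ratio was 3.63 for Rnu1b2 over Rnu1b1, 6.15 for Gm22614 over Gm25890, and 3.63 for the mean of Gm24830 and Gm26232 over Rnu1b6. In that last sequence the plus-strand copies also differed, with 1576 counts for Gm24830 and 368 for Gm26232, beside 268 for Rnu1b6. Its ratio therefore rests on Gm24830 and not on strand alone. A U2-length sequence with 3 plus-strand copies and 1 minus-strand copy gave 0.915, and a U6-length sequence with 23 and 20 copies gave 0.819. Over all 7 other snRNA sequences with copies on both strands the ratio ran from 0.237 to 1.87. By these means over copies it was below each of the 4 U1 values.

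The ratio also changed with the population. For U1a the minus-strand copies had 17.7% and 17.3% of the plus-strand count in the CLP libraries, 11.7% and 11.9% in CMP, 18.8% and 17.9% in GMP and 19.8% and 19.4% in MEP. They had 6.47% and 5.97% in B, 7.50% and 10.3% in T, 9.22% and 8.75% in Myeloid and 11.5% and 15.1% in Erythroid. CLP, GMP and MEP stood above the mature populations without overlap, and CMP lay within the range of Erythroid. For Rnu1b1 as a percentage of Rnu1b2 the means ran from 12.5% in Myeloid and 14.3% in B to 44.9% in CLP and 51.7% in MEP. There GMP (30.9% and 40.1%) overlapped Erythroid (34.2% and 35.1%). For Gm25890 as a percentage of Gm22614, CLP, GMP and MEP again stood above the mature populations. Rnu1b6, as a percentage of the mean of Gm24830 and Gm26232, had too few counts for a statement, with 100% and 0% in T. For the U2-length sequence the means were 99.5% to 140%, with the highest value in CMP.

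**Figure D2:**
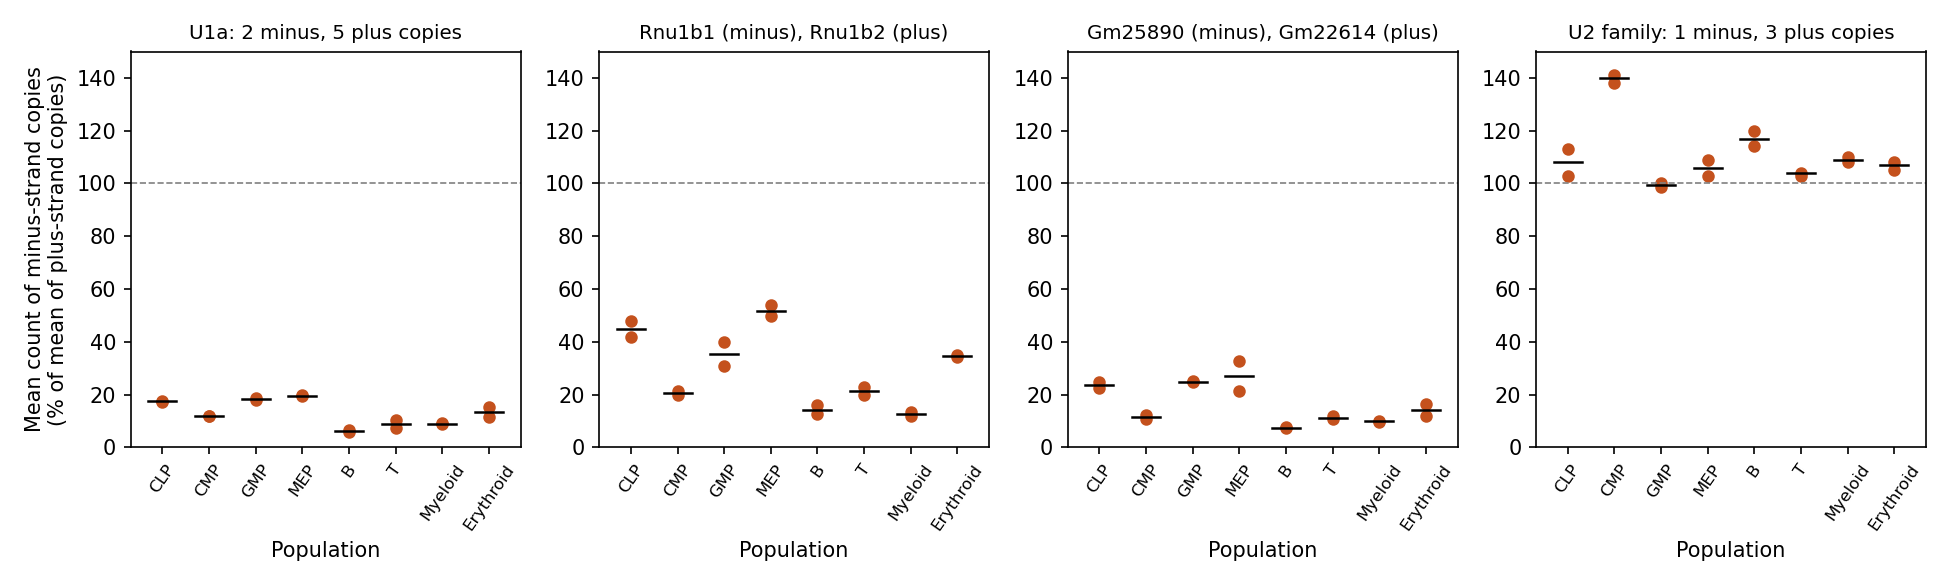
Mean count of minus-strand copies as a percentage of the mean count of plus-strand copies with the same sequence, for 3 U1 sequences and 1 U2-length sequence. Points are libraries, black lines are population means, and the dashed line marks equal counts. The U1 copies lie below 60% in every library and lowest in B or Myeloid, and the U2-length copies lie near or above 100%.

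The share of odd counts also differed between these groups, which differ in level as well. The part of level in these shares was not tested. In the deposited counts odd values made up 9.17% of all listed values. They made up 47.7% of the 128 values of the 8 abundant plus-strand members, 16.6% of 157 values of the minus-strand members and 2.53% of 79 values of the other 5 plus-strand members. Features outside the U1 lengths with a mean count of 500 to 5000 had 18.8% odd values, and abundant U2-length intervals had 38.9%. The labels do not say how reads with several matches were assigned or whether strand was used. The part of the assignment in the strand difference was not tested.

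Summing identical sequences before the fit removes the assignment among identical copies only. Gm22042 and Gm22614, or Gm24305 and Rnu1a1, differ by 1 base. A read that does not cover that base can still match either sequence. The summed U1a sequence stood at 511 and 562 CPM in Myeloid, 409 and 429 in CMP, 372 and 421 in B, 351 and 388 in CLP and 364 and 323 in GMP. It was 313 and 297 CPM in Erythroid, 241 and 273 in MEP and 223 and 247 in T. In this order, Myeloid differed from CMP (log2 difference 0.36, SE 0.10, adjusted p = 0.0227, edgeR over 739 features), and no other pair of neighbours did. The summed sequence was higher in Myeloid than in the other 7 populations by 0.72 (SE 0.07, adjusted p = 0.000108), and lower in T (-0.64) and MEP (-0.49).

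The summed Rnu1b1 and Rnu1b2 sequence was 104 and 114 CPM in Myeloid, 76.6 and 85.4 in CLP, 63.4 in both MEP libraries and 46.4 and 48.1 in T. Myeloid differed from the next population, CLP, by 0.43 (SE 0.10, adjusted p = 0.00936), and MEP from T by 0.42 (SE 0.10, adjusted p = 0.00625). From CLP down to MEP no neighbours differed. The summed Gm22614 and Gm25890 sequence had the same ends, with 91.3 and 99.8 CPM in Myeloid and 40.9 and 41.3 in T. Gm24830, Gm26232 and Rnu1b6 share another sequence of the b type, and together they were highest in GMP (8.59 and 14.5 CPM) and CLP (10.3 and 12.1), with no called difference between neighbours.

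**Figure D3:**
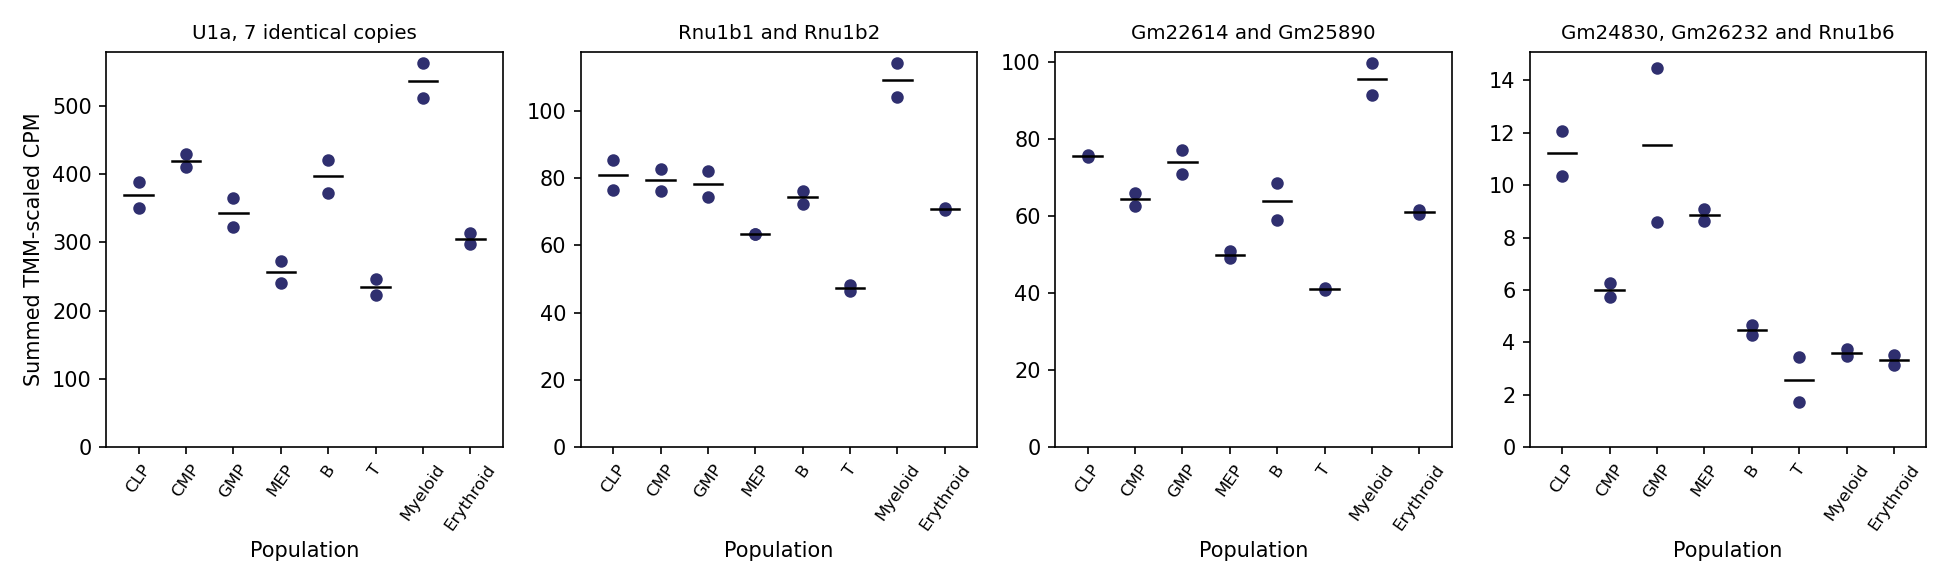
Summed level of each U1 sequence that occurs in several copies, in TMM-scaled CPM on axes that start at 0, with points for libraries and lines for population means. The U1a sequence and the first pair of b-type sequences are highest in Myeloid and lowest in T, and the sequence of Gm24830 is highest in GMP and CLP.

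Between progenitors and mature cells, 14 of 23 tested members differed, 13 higher and 1 lower in progenitors. Of all tested features 49.8% differed, 26.7% higher and 23.1% lower. The median log2 difference was 0.78 over the tested members and 0.07 over all features. The calls followed the groups described above. Of the minus-strand members 8 of 10 were higher in progenitors, of the 5 low-level plus-strand members all 5, and of the 8 abundant ones none. For the sum of all 13 minus-strand members, CMP was the exception among the progenitors. Its mean, 63.0 CPM, lay below Myeloid (67.2 CPM) and Erythroid (73.0 CPM), and above B (38.3 CPM) and T (35.4 CPM).

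Gm24830, a b-type copy in the chromosome 3 cluster with all 4 sequence elements, had the largest difference among the members. It was 7.24 and 9.42 CPM in CLP, 3.96 and 3.83 in CMP, 7.08 and 9.90 in GMP and 7.21 and 6.64 in MEP. In mature cells it was 1.54 and 2.66 CPM in B, 2.13 and 1.72 in T, 1.90 and 2.49 in Myeloid and 1.57 and 2.303 in Erythroid. All 8 progenitor libraries stood above all 8 mature ones. The log2 difference was 1.70 (SE 0.16, adjusted p = 4.05e-06), and 1.41 (SE 0.15, adjusted p = 1.4e-05) when its identical copies Gm26232 and Rnu1b6 were added.

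Rnu1b1 was higher in progenitors by 0.78 (SE 0.08, adjusted p = 1.04e-05), Gm22042 by 0.82 (SE 0.09, adjusted p = 1.92e-05), Gm24305 by 0.83 (SE 0.08, adjusted p = 7.27e-06) and Gm25890 by 0.91 (SE 0.10, adjusted p = 1.66e-05). Summed with its identical copy Gm22614, the Gm25890 sequence was at 0.058 (SE 0.05, adjusted p = 0.39), so the call was not kept. Gm24305 is the minus-strand a-type copy with A26G, at 10.2 and 9.73 CPM in CLP and 3.10 and 2.87 in T. For Rnu1b6 the difference was 0.96 (SE 0.47, adjusted p = 0.113), and it became 2.59 (adjusted p = 0.00168) without T library 1. Gm23804 was lower in progenitors by 0.29 (SE 0.08, adjusted p = 0.0115), a call lost without CMP library 1 (adjusted p = 0.0518) or B library 2 (adjusted p = 0.0646). Rnu1b2 was at -0.14 (SE 0.06, adjusted p = 0.0636) and passed, as a fall in progenitors, without CLP library 1, GMP library 1, B library 1 or T library 2 (adjusted p 0.0256 to 0.041). Gm22513 passed without B library 1 (-0.23, adjusted p = 0.036), and Gm22614 without B library 1 (-0.18, adjusted p = 0.033) or T library 2 (-0.18, adjusted p = 0.0449). Rnu1a1 (-0.0086, SE 0.06, adjusted p = 0.917), Gm22634 (-0.0019, SE 0.05, adjusted p = 0.985), Gm22068 and Gm26444 did not pass.

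The direction of the abundant intervals depended on the scaling. With unscaled library totals the median difference of all features moved from 0.07 to 0.31, and of the 8 abundant intervals 7 had positive values and 5 were called higher in progenitors, while Gm23804 was at -0.060 (adjusted p = 0.474). The calls over all features then split into 309 higher and 107 lower, against 200 and 173 with TMM. With identical sequences summed, 8 of 13 distinct tested sequences were higher and none lower in progenitors. Of all 739 features, 196 were higher and 170 lower in that setting. These 13 sequences include some that differ by only 1 base, so reads can still be shared between them. The summed U1a sequence was at -0.039 (SE 0.05, adjusted p = 0.562) and the summed Rnu1b1 and Rnu1b2 sequence at 0.059 (SE 0.05, adjusted p = 0.377). With the 4 progenitor and 4 mature populations as the units, 1 of 22 members passed, Gm24830 (1.71, adjusted p = 0.0167). In that setting 10 of all 737 tested features were called higher and 11 lower, so few features of any kind passed.

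In the lymphoid branch, CLP was compared with the mean of B and T. Of the 23 tested members 17 were higher and none lower in CLP, where 25.2% of all features were higher and 18% lower. No member fell at an unadjusted p below 0.05 in edgeR either, and DESeq2 gave 15 higher and 0 lower. Over all features DESeq2 gave 176 higher and 152 lower. The median was 1.49 against 0.13 for all features. The calls comprised 8 of 10 minus-strand members and all 5 low-level plus-strand members. The smallest p-values were those of Gm24305 (1.60, SE 0.14, adjusted p = 2.64e-06), Gm22042 (1.70, SE 0.15, adjusted p = 3.46e-06) and Rnu1b1 (1.49, SE 0.13, adjusted p = 3.84e-06). Summed with its identical copy Rnu1b2, the Rnu1b1 sequence was higher in CLP by only 0.45 (SE 0.09, adjusted p = 0.00159), and the summed Gm22614 and Gm25890 sequence by 0.56 (SE 0.09, adjusted p = 0.000386). Among the abundant intervals 4 passed: Gm22614 (0.36), Gm22634 (0.33), Gm26444 (0.30) and Gm22068 (0.28). None of these 4 passed with the RLE factors, where the lowest adjusted p of the abundant intervals was 0.0716. With unscaled totals all 8 did. The calls over all features then split into 312 higher and 59 lower, and the median of all features moved from 0.13 to 0.576, beside 0.72 for the abundant intervals. Summed over copies, U1a was higher in CLP by 0.28 (SE 0.09, adjusted p = 0.028). U1a differed from T by 0.65 (SE 0.11, adjusted p = 0.000359) and from B by -0.10 (SE 0.10, adjusted p = 0.493), so the T libraries carried that difference.

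GMP and Myeloid cells differed in both directions. Of the 23 tested members 7 were higher in GMP and 8 higher in Myeloid, against 16.3% and 15.5% of all features. All 8 called lower in GMP were the abundant plus-strand intervals, from -0.46 for Rnu1a1 (SE 0.12, adjusted p = 0.0164) to -1.11 for Gm23804 (SE 0.16, adjusted p = 0.000614). The 7 higher in GMP were 4 minus-strand members, Rnu1b1 (0.74, SE 0.16, adjusted p = 0.00534), Gm22042, Gm25890 and Gm26244, and 3 plus-strand members, Gm24830 (1.94, SE 0.30, adjusted p = 0.00088), Gm23238 and Gm25189. Rnu1b1 and its identical copy Rnu1b2 (-0.75, SE 0.11, adjusted p = 0.000746) were thus called in opposite directions, and their sum followed Rnu1b2 (-0.48, SE 0.10, adjusted p = 0.00527). Summed U1a was lower in GMP by -0.64 (SE 0.10, adjusted p = 0.00118). Without Myeloid library 1, 2 members were higher and 5 lower, and 3 and 5 when GMP and Myeloid were fitted alone.

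**Figure D4:**
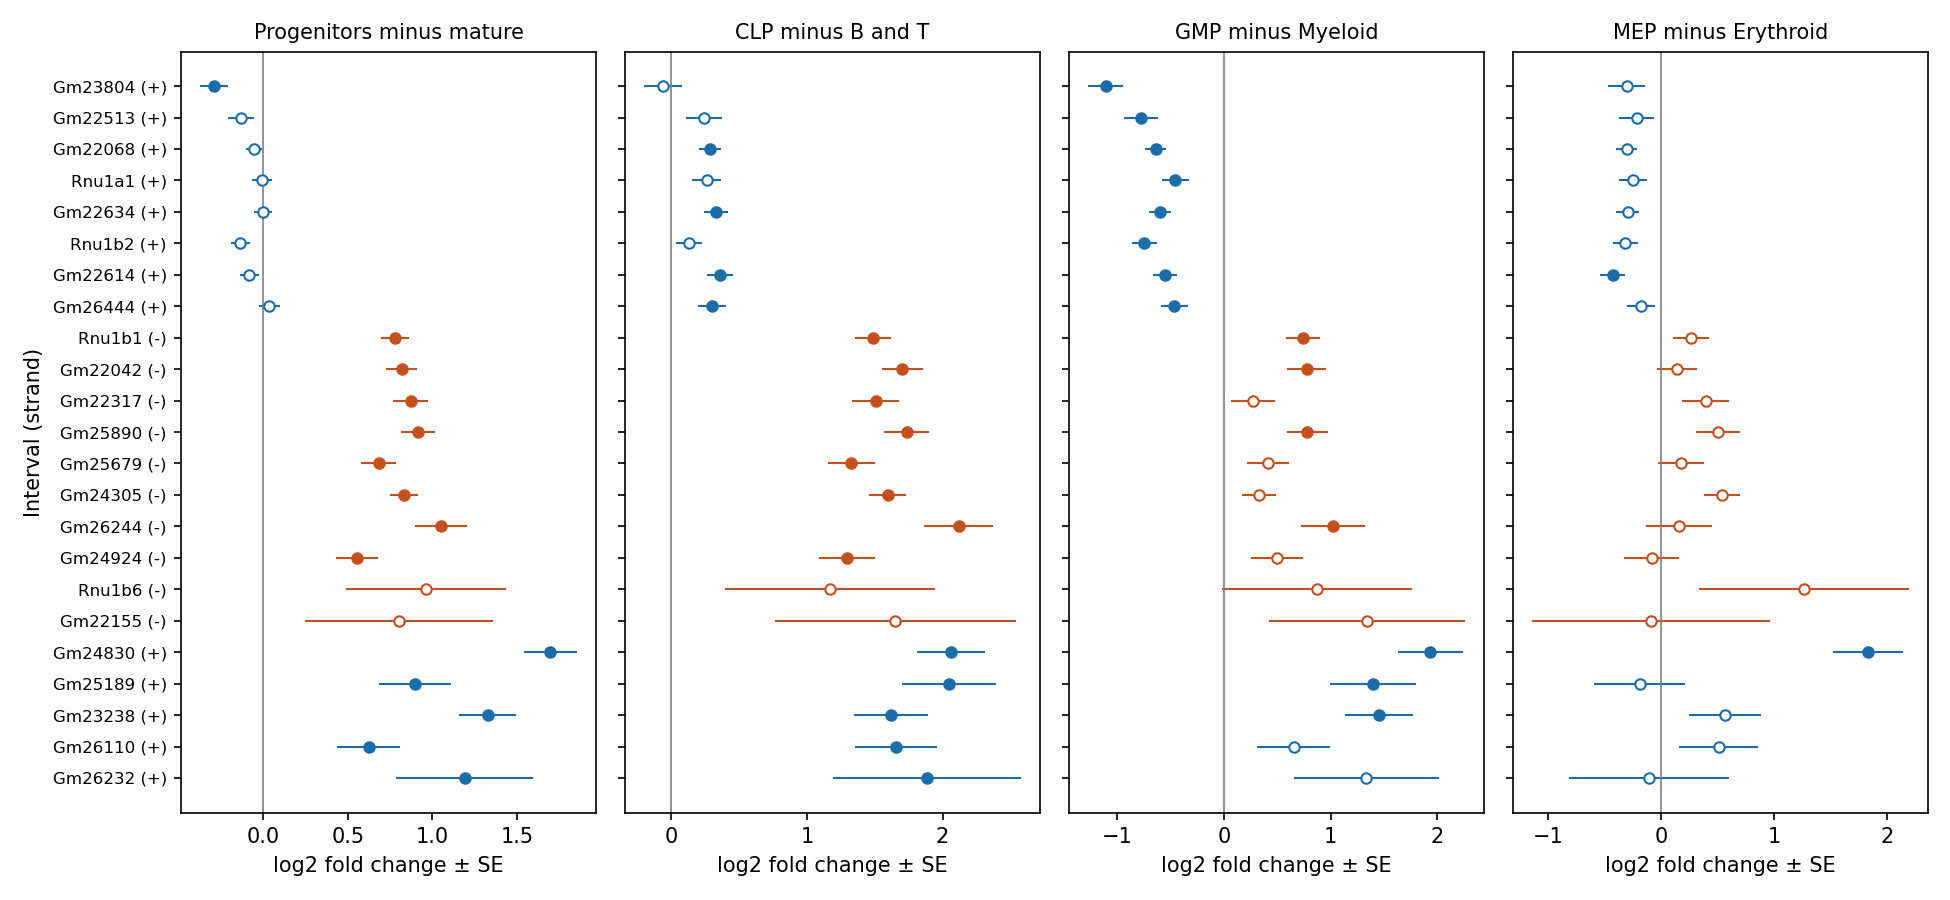
Log2 differences with SE of the 23 tested intervals in 4 comparisons, blue for plus-strand and orange for minus-strand members, filled where the edgeR adjusted p was below 0.05. In GMP minus Myeloid the 8 abundant plus-strand intervals at the top lie between -1.11 and -0.46 and the others at 0.27 or above.

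MEP and Erythroid cells differed in 2 of 23 tested members, 1 in each direction, against 5.47% of all features higher and 4.41% lower in MEP. Gm24830 was higher in MEP (1.83, SE 0.31, adjusted p = 0.00357), and Gm22614 was lower (-0.43, SE 0.11, adjusted p = 0.0329), a call lost with the RLE factors. Rnu1b1 was at 0.26 (SE 0.16, adjusted p = 0.375) and Rnu1a1 at -0.25 (SE 0.12, adjusted p = 0.269). Gm24830 was the only tested member higher in the progenitor in all 3 branches, at 2.06 (SE 0.25) in the lymphoid and 1.94 and 1.83 in the other two. Its identical copy Gm26232 passed in the lymphoid branch alone (1.88, SE 0.69, adjusted p = 0.0469), at a level of 0 to 2.92 CPM.

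The branches were compared with each other by a contrast of the contrasts in the same edgeR fit. The lymphoid difference departed from the GMP and Myeloid difference in 14 of 23 tested members (17.9% of all features) and from the MEP and Erythroid difference in 13 (21.4%), each time with the larger value in the lymphoid branch. Between the GMP and MEP branches no member differed in edgeR, 6 had an unadjusted p below 0.05, and 9.21% of all features differed. For Rnu1b2 the lymphoid difference was 0.13 and the GMP and Myeloid difference -0.75, which gave a gap of 0.88 (SE 0.15, adjusted p = 0.00211).

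The sum of all 42 members followed the abundant intervals. It was 873 and 967 CPM in Myeloid, 668 and 717 in CMP, 678 and 619 in GMP, 651 and 716 in CLP and 621 and 702 in B. Erythroid had 562 and 543 CPM, MEP 473 and 507, and T 391 and 424. As a share of the unscaled library counts, the members made up 0.0321% in T and 0.105% in Myeloid (means of 2 libraries).

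The b type made up 27.7% and 27.0% of canonical counts in CLP, 23.1% and 22.9% in CMP, 27.7% and 29.5% in GMP and 29.5% and 27.6% in MEP. In mature cells it was 22.8% and 22.3% in B, 24.9% and 23.3% in T, 24.3% and 23.8% in Myeloid and 26.4% and 27.7% in Erythroid. CMP had the lowest share among the progenitors and Erythroid the highest among the mature cells, so the groups overlapped. The share differed more by strand than by population. It was 20.4% to 24.3% over the libraries among plus-strand canonical intervals and 47.1% to 55.5% among minus-strand ones. Minus-strand members made up 5.59% to 18.9% of all member counts, with the lowest shares in B (6.01% and 5.59%) and the highest in MEP (18.9% and 17.1%). How far the assignment of reads with several matches set these shares was not tested.

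The other snRNAs of the spliceosomes had no member called lower in progenitors, where 26.7% of all features were higher and 23.1% lower. Of 17 tested U2-length intervals, whose RNA binds the branch point, 12 were higher and none lower in progenitors, of 16 U4- and U5-length ones 8 and none, and of 56 U6-length ones 11 and none. The U6-length share, 19.6%, lay below that of all features. Of the 3 minor snRNAs tested, Rnu11 (0.69) and Rnu12 (0.14), both of the minor spliceosome, were higher, and Rnu7, which acts in histone mRNA processing, was at -0.06. Between GMP and Myeloid, where 16.3% of all features were higher and 15.5% lower in GMP, 7 U2-length intervals were higher and none lower, beside 7 and 8 U1-length members.

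By the correlation of log2 levels over the 8 population means, the features most like the summed canonical U1 intervals were Gm24105 (r = 0.93), the snoRNA Gm24091 (0.85), the Y RNA Rny1 (0.84) and the snoRNAs Snord98 (0.83) and Gm22888 (0.82). Gm24105 had a mean of only 0.257 CPM. For the summed minus-strand members, a pattern added after the values were seen, 4 of the 5 most alike were other snRNA intervals of U2 length. Gm26316 (0.97) and Gm24497 (0.96) led them, and both lie on the plus strand, so the pattern was not particular to minus-strand intervals.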

How the data were processed

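Small RNA libraries were prepared with an NEBNext kit and sequenced on a NovaSeq instrument, per the labels. The deposited values are counts of reads per annotated interval, not normalized. Trimmomatic 0.38, Bowtie2 2.3.4.1 and GRCm38 are named, per the submitters' processing notes; the counting program, annotation, use of strand and treatment of multiple matches are not given in the sources used here. Intervals absent from a table were taken as 0. Intervals were matched to GENCODE M21 by chromosome, start and end, and sequences were aligned with Biopython 1.88.

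Counts were tested in R 4.3.3 with edgeR 4.0.16. Low counts were removed with filterByExpr (populations as groups, minimum count 10), which left 749 features. TMM scaling was followed by a quasi-likelihood fit over all 16 libraries with 1 mean per population (8 residual degrees of freedom) and Benjamini-Hochberg adjustment over all features at a threshold of 0.05. SE is the log2 difference over the square root of F. "Rose", "fell", "higher" and "lower" refer to that threshold where a test is named. On simulated counts for progenitors against mature cells (682 features), 95.6% of features changed by 1 on the log2 scale, 71.3% of those changed by 0.5 and 1.01% of unchanged ones were called. The simulation gave all features the same dispersion. It gave a feature the same level in all progenitor populations and the same in all mature ones. These shares therefore do not apply where such populations differ among themselves, as they did here. DESeq2 1.42.0, other scalings, filters and left-out libraries were alternatives.

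Named members are those called Rnu1 plus a letter, the 10 most abundant, the 5 with the smallest p among populations and the 5 between progenitors and mature cells, and those passing in all 3 branches. Other members were picked with their values in view. The members, lists and rules were chosen with earlier results of these data known. Library numbers come from the sample titles. Same-numbered libraries did not deviate together in all 28 pairs of populations, so they were not treated as pairs.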

Additional observations from a re-analysis of the deposited data

Results flagged for a closer look

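The change from progenitor to mature cell differed between branches for 12 of the named members, by a contrast of the contrasts in the edgeR fit with Benjamini-Hochberg adjustment over 749 features. The difference between CLP and the mean of B and T exceeded that between GMP and Myeloid by 0.71 (log2) for Rnu1a1 (SE 0.16, adjusted p = 0.0108), 0.93 for Gm22068, 1.02 for Gm22513, 0.93 for Gm22634, 1.05 for Gm23804 and 0.76 for Gm26444. It did so by 0.88 for Rnu1b2 and 0.91 for Gm22614. For these 8 abundant plus-strand intervals the Myeloid libraries were the highest of all, and the CLP effect was 0.36 or less. For the minus-strand members the excess was 1.27 for Gm24305, 0.75 for Rnu1b1 (SE 0.21, adjusted p = 0.0308), 0.95 for Gm25890 and 0.93 for Gm22042, all of which were higher in the progenitor in both branches by their values. Over all tested features 17.9% differed between these branches, and 14 of the 23 tested members did.

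The lymphoid difference also exceeded that between MEP and Erythroid for 8 named members. The excess was 0.51 for Rnu1a1 (SE 0.16, adjusted p = 0.0462), 0.59 for Gm22068, 0.63 for Gm22634 and 0.79 for Gm22614. It was 1.05 for Gm24305, 1.23 for Rnu1b1, 1.23 for Gm25890 and 1.56 for Gm22042 (SE 0.24, adjusted p = 0.000679). Of all tested features 21.4% differed between these branches, and 13 of the 23 tested members did. In both comparisons the mature cells of the lymphoid branch include T, in which 20 of the 23 tested members were lower than in the other 7 populations, as were 29.5% of all tested features. No member differed between the GMP and MEP branches in edgeR, against 9.21% of all features.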

How the results depend on the processing

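Counts of called members were within 1.5 times those reported under DESeq2, library totals, counts halved to read pairs, and leaving out either the GMP, MEP and Erythroid libraries of higher miRNA share or those of lower share (the last pair of settings was chosen after seeing the data). A fit with the replicate number as a block gave 20 members that vary, 14 between progenitors and mature cells, 16 for CLP, 15 for GMP, 2 for MEP, 45 calls above and 43 below the other populations. Over the 28 pairs of populations, the correlation of same-numbered libraries was -0.91 to 0.82. Leaving out 1 library at a time gave 20 to 22 varying members, 12 to 15 between progenitors and mature cells, 12 to 18 for CLP, 7 to 15 for GMP, 1 to 3 for MEP, 31 to 44 calls above and 37 to 43 below. Where 1 library was left in a population, it was assumed to vary like the others.

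For MEP against Erythroid, 1 member was called with RLE factors, no filter, a minimum count of 50, or identical sequences summed, and 0 with these populations alone. For GMP against Myeloid, 7 were called with no filter, 8 with these populations alone and 9 with identical sequences summed. Summing identical sequences, which leaves 13 rows to test, gave 12 varying, 8 between progenitors and mature cells, 11 for CLP, 1 for MEP, 28 calls above and 24 below. With populations as units 1 passed.

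Between progenitors and mature cells, library totals turned Rnu1a1 to 0.22, Rnu1b2 to 0.093, Gm22513 to 0.10, Gm22068 to 0.18, Gm22634 to 0.23 and Gm22614 to 0.15. These shifts are close to the shift of all features. Values near 0 changed sign without 1 library for Rnu1a1 (-0.098 to 0.050), Gm22634 (-0.086 to 0.038) and Gm26444 (-0.046 to 0.082). They did so without the libraries of higher miRNA share for Rnu1a1 (0.021) and Gm22634 (0.029), and with populations as units for Gm26444 (-0.064). The cause was not tested. Depth limits the 19 untested members and, among those tested, Rnu1b6, Gm26232 and Gm22155.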
